A study of Ascodesmis nigricans with 6 samples.

Results

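Of the 9622 gene models of the cup fungus Ascodesmis nigricans in the deposited table, 247 had more reads in sexual than in vegetative mycelium and fewer in young fruiting bodies than in either. They were selected from the measured values themselves, on CPM, the raw count divided by the library total and multiplied by 1000000. Both vegetative libraries had to be at 5 CPM or more, and the lower sexual library at least 2 but under 10 times the higher vegetative one. The lower vegetative library had to be at least 2 times the higher protoapothecia library. Genes without a count in protoapothecia were left out, as were genes at 50 CPM or more in all 4 mycelium libraries whose protoapothecia levels were at most 5% of the lowest of these.

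Strain CBS 389.68 was sequenced in 3 tissues, with 2 independent biological replicates each: protoapothecia collected by laser microdissection, total sexual mycelium and total vegetative mycelium. Per the labels, all were grown on slides for 3 days at 25 °C, fixed in ethanol, and their RNA was linearly amplified. All 6 libraries share the strain, with no mutant or treatment. The labels do not say how growth differed between sexual and vegetative mycelium, and only the protoapothecia carry the microdissection label, so the effects of tissue and of collection cannot be told apart.

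Protoapothecia are the early stage of the apothecium, the open fruiting body in which cup fungi form their asci and ascospores. They arise from female structures on a mycelium that has become competent for sexual reproduction, while the surrounding hyphae go on foraging. Total sexual mycelium is thus a mixture that can hold hyphae and young fruiting bodies together, at shares the labels do not give. The identifiers in the table carry no gene name or product, so no function is given for any member and the tissues could not be checked against marker genes.

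The libraries held 11589777 to 12835772 counts, and 8473 to 9420 gene models had at least 1 count in a library. The rule narrowed the table in steps. Both vegetative libraries reached 5 CPM in 5763 genes, and 1342 of these met the sexual window. Of the 1342 genes, 248 (18.5%) also met the protoapothecia condition, whereas 2262 of the 5763 genes (39.3%) met it. Both conditions use the vegetative libraries, so these shares are linked by construction. No gene fell to the exclusion for 0 counts and 1 gene to the other, which left 247.

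The members went over a wide range of levels with the order that the rule set. Their median was 2.03 and 2.05 CPM in the protoapothecia libraries, 47.8 and 53.9 CPM in the sexual libraries, and 14.4 and 15.8 CPM in the vegetative libraries. The lowest and the highest member were at 0 and 351 CPM over the protoapothecia libraries, at 12.4 and 36575 CPM over the sexual libraries, and at 5.06 and 1347 CPM over the vegetative libraries. Among the 5763 genes with enough vegetative reads, the medians were 27.2 and 26.2 CPM in protoapothecia, 51.5 and 57.1 CPM in the sexual libraries, and 32.8 and 32.7 CPM in vegetative mycelium. In sexual mycelium the members were therefore near the median of these 5763 genes, and in both other tissues they were under it. Over all 9622 gene models the medians were 13.4 and 12.3 CPM in protoapothecia. They were 27.2 and 30.4 CPM in the sexual libraries, and 11.7 and 12.4 CPM in vegetative mycelium. Against all gene models, the member medians were thus higher in both mycelia and lower in protoapothecia. These levels are not corrected for mRNA length. In such bulk samples, fewer cells of a type and less RNA per cell cannot be told apart.

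**Figure D1:**
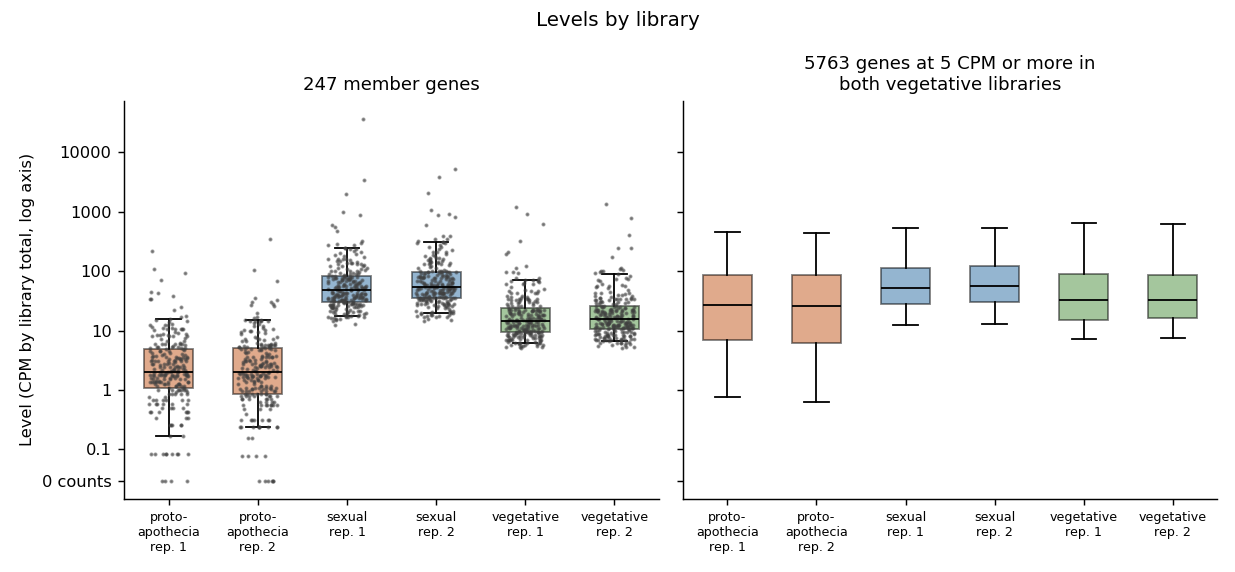
Levels by library in CPM of the library total (log axis), for the 247 members (left, 1 point per gene) and the 5763 genes at 5 CPM or more in both vegetative libraries (right). Boxes span the middle 50% with the median as a line, and whiskers the 5th to 95th percentile; the member medians are 2.03 and 2.05 CPM in protoapothecia, 47.8 and 53.9 CPM in the sexual libraries, and 14.4 and 15.8 CPM in vegetative mycelium.

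Summed over all members, their share of a library was 0.151% and 0.153% for protoapothecia, 6.13% and 3.39% for sexual mycelium, and 0.850% and 0.857% for vegetative mycelium. A single gene, proteinId394959, carried the gap between the sexual replicates: it alone took 3.66% of sexual library 1 and 0.389% of sexual library 2. Without it the summed share was 0.130% and 0.118% for protoapothecia, 2.47% and 3.00% for sexual mycelium, and 0.758% and 0.722% for vegetative mycelium.

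The lower sexual library was a median of 2.53 times the higher vegetative library. For 180 members this ratio was 2 to under 3, for 58 it was 3 to under 5, and for 9 it was 5 to under 10, with a highest value of 6.82. The ratio of vegetative mycelium to protoapothecia was larger and more variable, but the rule set unlike limits to the 2 ratios. It held the sexual ratio under 10, with no upper limit to the other except its exclusions, so their spreads cannot be compared. The lower vegetative library was a median of 4.71 times the higher protoapothecia library, and this ratio was 2 to under 5 for 130 members, 5 to under 20 for 96, and 20 or more for 21. Between the tissue means, sexual mycelium was a median of 22.6 times protoapothecia, with a middle 50% of 13.3 to 48.1 times.

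How far the sexual step counts as a rise depended on the scaling of the libraries. With library totals, the mean of the sexual libraries was a median of 3.17 times the vegetative mean for the members. The median gene tested was itself 2.09 times higher in sexual mycelium, leaving out genes without a vegetative count, which have no ratio. With TMM factors (trimmed mean of M-values), which align the bulk of the genes, the median was 1.92 times for the members and 1.27 times for the genes with a ratio. With RLE factors (relative log expression, as in DESeq2) it was 1.62 times for the members and 1.08 times for the genes with a ratio. On the log2 scale the member median lay 0.60 above that of these genes with library totals, and 0.59 above with TMM and with RLE factors. A change of scaling moves all genes by nearly the same amount, so this gap could hardly differ between scalings. The rule also chose the members on this ratio. Fitted over all 8861 genes, the median log2 fold change was 1.145 with library totals, 0.42 with TMM and 0.18 with RLE factors.

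**Figure D2:**
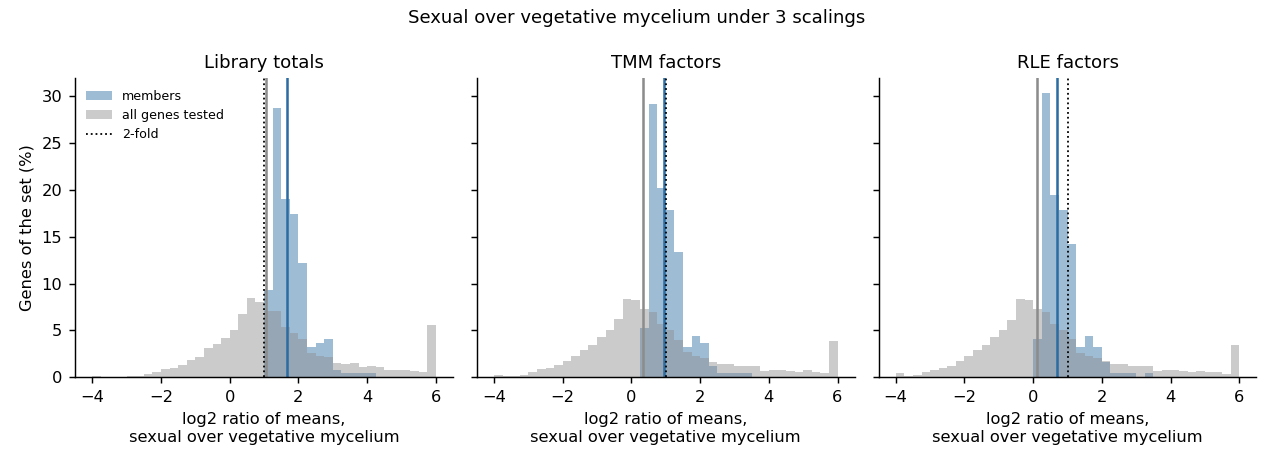
Share of genes (y axis, %) by log2 ratio of mean levels in sexual over vegetative mycelium (x axis), for the 247 members (blue) and all genes tested that have a vegetative count (grey), with library totals, TMM factors and RLE factors. Solid lines mark the medians, 3.17, 1.92 and 1.62 times for the members and 2.09, 1.27 and 1.08 times for the genes in grey. The dotted line marks 2-fold, and the outermost bins hold all values beyond them.

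Applied to TMM-scaled levels, the same rule chose 58 genes, of which 40 were among the 247. Applied to RLE-scaled levels it chose 35 genes, of which 23 were among them. All 247 members still met the vegetative minimum and the protoapothecia condition on both scalings, so the sexual window was the condition that most members missed: it was met by 41 members with TMM and by 24 with RLE factors. The sexual libraries were both above both vegetative libraries for all 247 members with TMM, where 51.8% of all genes tested were, and for 244 members with RLE factors, where 45.1% were. The 3 exceptions, named because their libraries overlapped, were proteinId360694, proteinId368798 and proteinId396580. The rule had required a ratio of at least 2 between these libraries on library totals. The counts of 247 and 244 were therefore largely set in advance and only describe the members.

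In the fit over all 8861 genes with enough counts (edgeR's quasi-likelihood test, TMM factors, Benjamini-Hochberg adjusted p under 0.05, two-sided), all 247 members passed the filter on low counts. For sexual over vegetative mycelium, 109 members (44.1%) were called higher, where 30.7% of all genes tested were called higher. None was called lower, and 138 did not pass. For protoapothecia over vegetative mycelium, 246 members were called lower, against 35.3% of all genes tested. For protoapothecia over sexual mycelium, all 247 were called lower, against 36.9% of all genes tested. The rule used each of these contrasts, so the counts describe the members and are no evidence for them. The count for sexual mycelium was 67 with RLE factors, which is 27.1% of the members against 25.6% of all genes tested, and 238 with library totals, 96.4% against 53.7%. Without vegetative replicate 1 it was 22, 8.91% of the members against 15.8% of all genes tested, and without vegetative replicate 2 it was 34, 13.8% against 18.1%. Without sexual replicate 2 it was 47, 19.0% against 22.1%, and without sexual replicate 1 it was 66, 26.7% against 24.2%. The members' share was thus near that of all genes with RLE factors and without sexual replicate 1, and under it without either vegetative library or sexual replicate 2. The cause of this dependence was not tested.

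The fitted log2 fold change of the members was a median of 0.94 for sexual over vegetative mycelium (range 0.34 to 3.48), where the median of all genes tested was 0.42. It was a median of -2.81 for protoapothecia over vegetative mycelium (range -8.04 to -1.21), where all genes tested had a median of 0.15. Calls for sexual mycelium went with the ratio of the lower sexual to the higher vegetative library. Called were 47 of the 180 members under 3 times (26.1%), 53 of the 58 members at 3 to under 5 times (91.4%), and all 9 members at 5 times or more. Of all genes tested, at any ratio, 30.7% were called higher, and shares of other genes within these bands were not computed. The ratio and the call come from the same libraries, so this order was likely by construction. There were 24 members at 2 times or more on all 3 scalings, and 23 of them were among the 109. The plot of fitted changes places the members at the lower right, and both axes share the vegetative libraries.

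**Figure D3:**
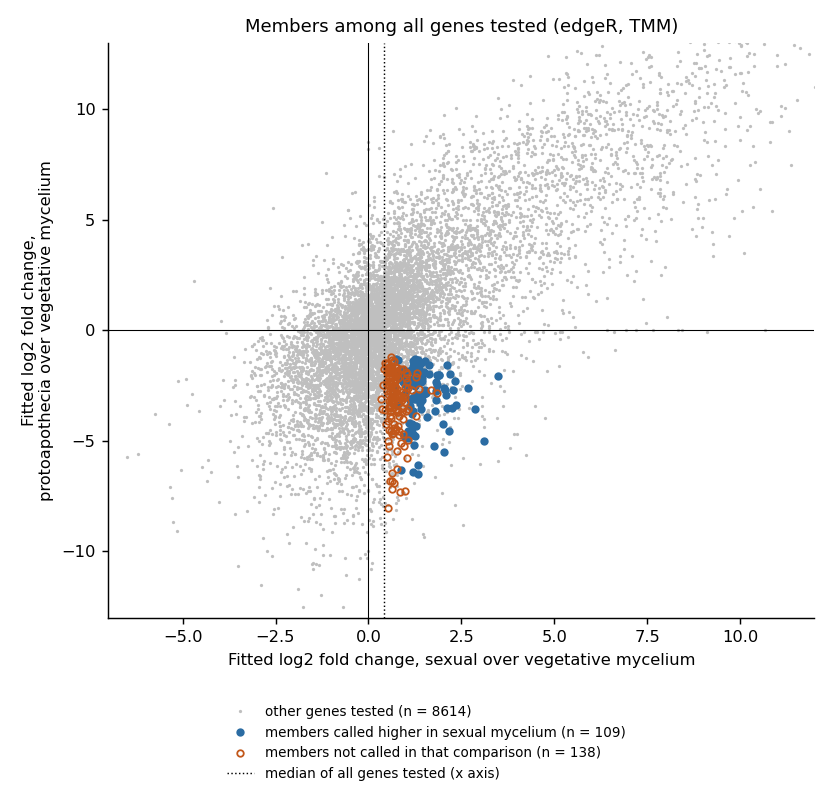
Fitted log2 fold changes of sexual over vegetative mycelium (x axis) and protoapothecia over vegetative mycelium (y axis) for the genes tested, with the 109 members called higher in sexual mycelium filled and the 138 others open. All members lie at 0.34 to 3.48 on the x axis and at -8.04 to -1.21 on the y axis; the dotted line is the median of all genes tested on the x axis, and 80 other genes lie beyond the axes.

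The authors' deposited values come from the same 6 libraries that the rule used, so they describe the members and are no separate evidence. In the authors' deposited table, 78 members (31.6%) have a DESeq adjusted p under 0.05 with a ratio above 1 for sexual over vegetative mycelium, where this holds for 26.6% of the genes with a p. Of these, 77 were also among the 109. The authors' deposited p has 2 decimals, so genes listed at 0.05 were not counted, though some may be under 0.05 before rounding. The median DESeq ratio of sexual over vegetative mycelium in the authors' deposited table is 1.61 for the members and 1.19 for all genes. The LOX ratio in the authors' deposited table is larger for both, at a median of 3.11 for the members and 2.07 for all genes. All 247 members have a LOX probability of 1.00 of being higher in sexual mycelium in the authors' deposited table, as do 73.5% of all genes. For protoapothecia over vegetative mycelium, both DESeq and LOX give the members a median ratio of 0.15 in the authors' deposited table, and DESeq calls all 247 lower, against 32.4% of the genes with a p. All 247 have a LOX probability of 0.00 of being higher in protoapothecia there, as do 40.1% of all genes in the authors' deposited table. Against sexual mycelium, DESeq in the authors' deposited table calls all 247 lower as well, where it does so for 30.1% of the genes with a p, and LOX has all 247 at a probability of 0.00, as it has 57.1% of all genes.

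The 2 members with the most counts in sexual mycelium varied between replicates in different tissues. The gene proteinId394959, with an mRNA of 920 bases, was at 215 and 351 CPM in protoapothecia, 36575 and 3894 CPM in the sexual libraries, and 913 and 1347 CPM in vegetative mycelium. The tissues did not overlap, but the sexual replicates were 9.39 times apart, the widest such gap among the members. Its fitted log2 fold change for sexual over vegetative mycelium was 3.48, and 0.99 without sexual replicate 1. It was among the 109 members called higher in sexual mycelium, a call that held without sexual replicate 2 and was lost without any other library. It was also the 1 member not called lower in protoapothecia than in vegetative mycelium, in a fit that pools the spread of all 3 tissues, and it was called there when either sexual library was left out.

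The gene proteinId240281, with an mRNA of 966 bases, was at 108 and 106 CPM in protoapothecia, 3442 and 5171 CPM in the sexual libraries, and 1211 and 241 CPM in vegetative mycelium. Here the vegetative libraries were 5.02 times apart, whereas the protoapothecia libraries nearly coincided. Its fitted log2 fold change for sexual over vegetative mycelium was 1.85, and 3.42 without vegetative replicate 1, where alone among the 6 libraries left out it was called. The second widest gap between sexual replicates was that of proteinId118787, at 0.254 and 1.89 CPM in protoapothecia, 178 and 802 CPM in the sexual libraries, and 34.3 and 33.0 CPM in vegetative mycelium. Its fitted log2 fold change for sexual over vegetative mycelium was 3.11, and 1.71 without sexual replicate 2, where it was not called, as it was not without vegetative replicate 1 or 2.

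Levels of different genes can be compared only per length of mRNA, as CPM per kilobase. On that scale the members had a median of 1.39 in protoapothecia, 32.7 in sexual mycelium and 9.34 in vegetative mycelium. The median over all gene models was 9.33 in protoapothecia, 18.9 in sexual mycelium and 7.25 in vegetative mycelium. Over the 5763 genes that met the same vegetative minimum it was 17.3 in protoapothecia, 35.7 in sexual mycelium and 21.7 in vegetative mycelium, so the members' medians were under those of these genes in all 3 tissues. Of the 100 genes with the highest CPM per kilobase in sexual mycelium, 5 were members, and none was among the 100 highest in protoapothecia or in vegetative mycelium. These 5, named for that rank, were proteinId394959 at rank 3, proteinId340965 at rank 11, proteinId240281 at rank 19, proteinId375595 at rank 52 and proteinId307485 at rank 84. In protoapothecia 1 member, proteinId394959, was among the 1000 highest, at rank 475.

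Among these abundant members, proteinId340965, with an mRNA of 336 bases, was at 43.7 and 13.3 CPM in protoapothecia, 1989 and 2087 CPM in the sexual libraries, and 627 and 771 CPM in vegetative mycelium. Its mean was 28.5 ± 21.6 CPM for protoapothecia, 2038 ± 69.6 CPM for sexual mycelium and 699 ± 102 CPM in vegetative mycelium (SD, n = 2 each). The short model proteinId375595, of 240 bases, was at 2.71 and 3.08 CPM in protoapothecia, 555 and 389 CPM in the sexual libraries, and 33.1 and 93.9 CPM in vegetative mycelium. By library totals the sexual libraries were above all others in both genes, as the rule required of every member. With TMM factors the fitted log2 fold change of sexual over vegetative mycelium was 2.18 for proteinId375595, which was called. It was 0.82 for proteinId340965 and 0.58 with RLE factors, and this gene was called only with library totals or with either protoapothecia library left out.

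The 2 members with the highest ratio of the lower sexual to the higher vegetative library were both at low vegetative levels. The first, proteinId312449, was at 0.509 and 2.05 CPM in protoapothecia, 44.1 and 53.9 CPM in the sexual libraries, and 5.40 and 6.47 CPM in vegetative mycelium. Its pooled counts were 8.26 times higher in sexual than in vegetative mycelium (95% Clopper-Pearson interval 6.95 to 9.87, for counting error only), on library totals. Its fitted log2 fold change was 3.04 with library totals, 2.32 with TMM and 2.08 with RLE factors. The second, proteinId373954, was at 1.78 and 1.03 CPM in protoapothecia, 55.6 and 116 CPM in the sexual libraries, and 8.48 and 7.63 CPM in vegetative mycelium. Its pooled ratio was 10.8 times (interval 9.31 to 12.5) on library totals, and its fitted log2 fold change was 3.41 with library totals, 2.67 with TMM and 2.42 with RLE factors. Without vegetative replicate 1 or 2, proteinId312449 was no longer called higher in sexual mycelium, while proteinId373954 was called under every library left out.

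The 2 members with the highest ratio of vegetative mycelium to protoapothecia had few protoapothecia counts. The gene proteinId292804 had 1 and 0 counts in protoapothecia, 329 and 366 counts in the sexual libraries, and 144 and 158 counts in vegetative mycelium. Vegetative mycelium was 302 times protoapothecia by pooled CPM, with a wide counting interval of 53.7 to 11950.5. The gene proteinId368798, a model of 246 bases, had 6 and 4 counts in protoapothecia, 1424 and 1183 counts in the sexual libraries, and 546 and 535 counts in vegetative mycelium. Vegetative mycelium was 108 times protoapothecia (interval 58.5 to 226). Both had a small sexual step, with the lower sexual library at 2.30 times the higher vegetative one for proteinId292804 and at 2.04 times for proteinId368798, and neither was among the 109.

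Counts in protoapothecia were low for many members, which limits how well the downward step can be measured. At most 10 counts in both protoapothecia libraries were found for 34 members, 7 members had 3 counts or fewer summed over both, and 10 members had 0 counts in 1 of these libraries. There, 0 counts allow a level of up to 0.237 to 0.254 CPM, which is 3 counts in the library. At least 100 counts in both protoapothecia libraries were found for 28 members. In mycelium no member had fewer than 60 counts in a vegetative or 144 counts in a sexual library. The 2 members with the lowest vegetative mean were proteinId349851 and proteinId383336. The gene proteinId349851 had 3 and 1 counts in protoapothecia, 176 and 250 counts in sexual mycelium and 60 and 65 counts in vegetative mycelium. The gene proteinId383336 had 1 and 0 counts in protoapothecia, 144 and 213 counts in sexual mycelium, and 63 and 73 counts in vegetative mycelium.

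The replicates of the members were closest in vegetative mycelium. There, 7 of 247 members (2.83%) were over 2-fold apart, against 1.96% of the 5763 genes with enough vegetative reads. In sexual mycelium 15 members (6.07%) were over 2-fold apart, against 8.21% of those genes. In protoapothecia 63 of the 237 members with counts in both libraries (26.6%) were over 2-fold apart, against 12.6% of those genes, which had higher protoapothecia levels. The rule sets no upper limit to the higher sexual library and no lower limit to the lower protoapothecia library other than its exclusions. The widest protoapothecia gaps were those of proteinId291710, with 1 and 39 counts, and proteinId372404, with 2 and 46 counts.

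By library totals, replicate 2 was the higher one for most members in both mycelia. This was not counted with TMM or RLE factors, which can shift the ratio between replicates. In sexual mycelium 183 members (74.1%) were higher in replicate 2 than in replicate 1 by CPM, against 63.3% of the 5763 genes, and in vegetative mycelium 163 (66.0%) were, against 49.0%. In protoapothecia 107 of 237 (45.1%) were, against 47.7%. The median ratio of replicate 2 to replicate 1 was 0.930 in protoapothecia, 1.17 in sexual mycelium and 1.07 in vegetative mycelium.

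**Figure D4:**
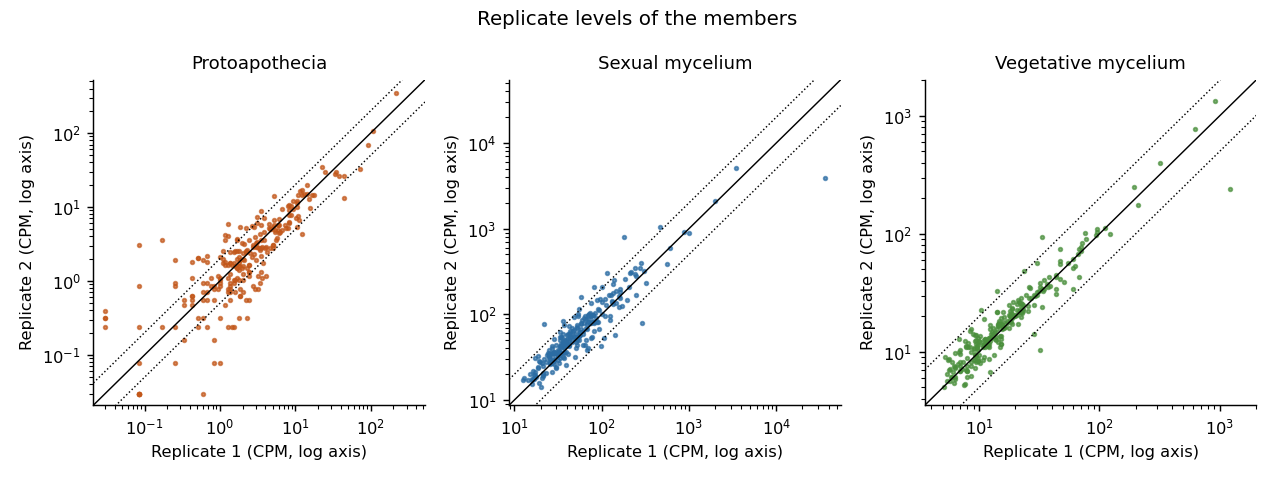
Replicate 1 (x axis) against replicate 2 (y axis) for the 247 members in each tissue, in CPM on log axes, with equality as a solid line and 2-fold gaps as dotted lines. Genes at 0 counts are drawn at the left edge (replicate 1) or the lower edge (replicate 2) of the protoapothecia panel. Gaps over 2-fold are seen in 63 members of 237 in protoapothecia, 15 of 247 in sexual mycelium and 7 of 247 in vegetative mycelium, and the far point in sexual mycelium is proteinId394959.

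The length of the mRNA was not used by the rule. The members had a median of 1729 bases (middle 50% from 1068 to 2385), against 1230 bases over all gene models and 1496 bases over the 5763 genes with enough vegetative reads. Of the members, 105 (42.5%) were in the longest 25% of all gene models and 36 (14.6%) in the shortest, against 33.1% and 13.5% of the 5763 genes. The 1094 genes that met the sexual window but not the protoapothecia condition had a median of 1722 bases. In contrast, the 2014 genes that met the protoapothecia condition outside the sexual window had a median of 1390 bases. By median length the members thus resembled the genes that shared their sexual window, though 14.6% of members and 7.31% of those genes were in the shortest 25%. Longer mRNAs collect more reads at the same abundance, and a CPM minimum keeps more of them; the part of this in the lengths was not tested.

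**Figure D5:**
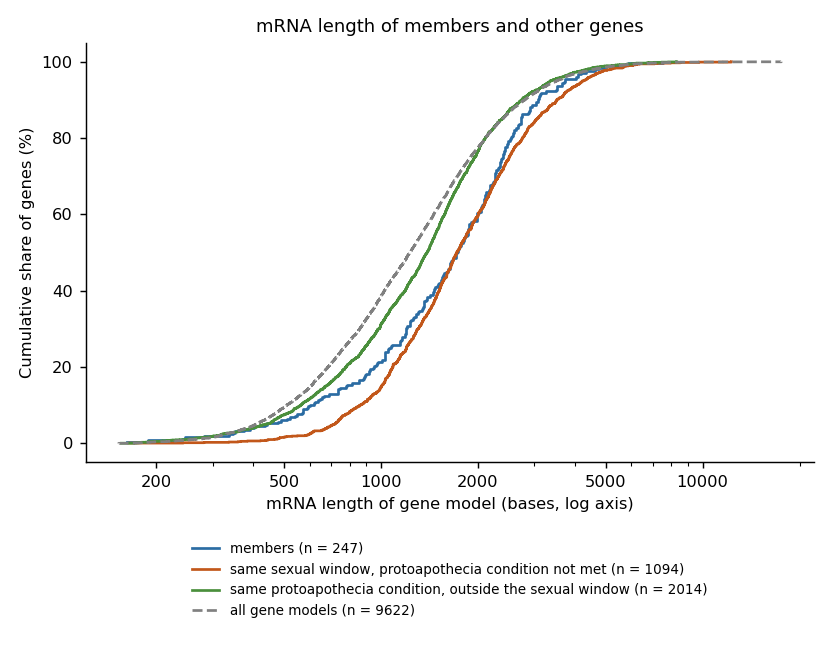
Cumulative share of genes (y axis, %) by mRNA length in bases (x axis, log) for the members, the genes meeting either condition alone and all gene models. The curves of the members and of the genes sharing their sexual window cross 50% at 1729 and 1722 bases, to the right of the curves with medians of 1390 and 1230 bases.

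The longest members were proteinId222758, with an mRNA of 7506 bases, and proteinId343349, with 5859 bases. Of these, proteinId222758 had 21 and 27 counts in protoapothecia, 467 and 720 counts in the sexual libraries, and 129 and 242 counts in vegetative mycelium. The shortest members were proteinId296575, with 162 bases, and proteinId307485, with 189 bases. Despite its length proteinId307485 had 209 and 183 counts in protoapothecia, 3770 and 2878 counts in the sexual libraries, and 908 and 1168 counts in vegetative mycelium.

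The genes nearest to each limit of the rule are given beside the number of genes that missed that limit alone, at any distance from it. At the lower limit of the sexual window, proteinId309535 was inside at 2.001 times and proteinId370219 outside at 1.994 times, and 1889 genes missed this limit alone. At the protoapothecia limit, proteinId91561 was inside at 2.027 times and proteinId213443 outside at 1.996 times, and 1094 genes missed this limit alone. At the vegetative minimum, proteinId349851 was inside at 5.06 CPM and proteinId327610 outside at 4.97 CPM, and 113 genes missed it alone. At the upper limit of the sexual window, proteinId312449 was inside at 6.82 times and proteinId131171 outside at 11.2 times, with 3 genes beyond the limit. The gene left out for its loss in protoapothecia was proteinId375195, whose higher protoapothecia library was at 4.47% of its lowest mycelium library, while proteinId347990 was the member nearest to that limit, at 6.01%.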

How the data were processed

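RNA sequencing of 6 libraries in 3 tissues was analysed from a deposited table of raw read counts for 9622 gene models, per the file headers; the table also gives mRNA lengths. Aligner, counting tool, strand use, genome build and annotation were not given in the sources used here. The authors' deposited table further holds DESeq's linear ratio and adjusted p-value (2 decimals), and from LOX a ratio and a probability, used as a score from 0 to 1, per the file headers. Columns of an analysis called "classic" were not used, because its method is not given.

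Count columns were assigned by library title. CPM are counts over library totals. Genes were filtered with edgeR's filterByExpr (8861 kept, 761 left out), scaled by TMM and fitted by tissue over all libraries (edgeR 4.0.16, limma 3.58.1, DESeq2 1.42.0, R 4.3.3; robust quasi-likelihood, 3 residual degrees of freedom). The script was tested on simulated data. Members, lists and named genes were chosen with earlier results of these data known. Named members are the 2 at each extreme of sexual level, ratios between tissues, replicate gaps, length and vegetative level, and the genes nearest each limit of the rule; others are said to be named for their values. Intervals and floors cover counting error only. Alternatives were other scalings, filters, thresholds, DESeq2, a replicate block, fits of 2 tissues and leaving out each library. Figures used matplotlib 3.10.9.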

Additional observations from a re-analysis of the deposited data

How the results depend on the processing

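The count of members lower in protoapothecia was 240 to 247 against vegetative and 247 against sexual mycelium under all 14 alternatives to the fit, where 29.4% to 39.7% and 30.2% to 46.4% of all genes tested were called lower. The count higher in sexual mycelium was 109 (44.1%, against 30.7% of all genes tested), 67 under RLE scaling (27.1% against 25.6%), 238 under library totals (96.4% against 53.7%), and 22 to 148 with 1 library left out (8.91% against 15.8% without vegetative replicate 1, and 59.9% against 32.1% without protoapothecia replicate 2); the cause was not tested. The number of genes chosen was 247, 58 with TMM and 35 with RLE effective library sizes, 506 at a sexual fold of 1.5 and 67 at 3, and 272 to 402 with 1 library left out, since fewer libraries have to meet the rule. Over all genes, calls for sexual over vegetative mycelium numbered 4033, and 2129 to 4276 with 1 library left out. With the replicate block, 87 members (35.2%) were called higher in sexual mycelium, against 27.8% of all genes tested. In that fit 246 were called lower in protoapothecia than in vegetative mycelium, against 34.6%, and 247 lower than in sexual mycelium, against 35.1%. The labels state no pairing of libraries by replicate number. The deviations of same-numbered libraries correlated at -0.139, 0.0294 and -0.0278 between tissues. With a single difference per tissue, these values cannot decide whether the libraries were paired. For 19 named members, no fitted change reversed sign under these settings. The rule had asked for at least 2-fold in each direction in these same libraries, so a reversal was unlikely by construction. With 2 libraries per tissue and low protoapothecia counts, the size of the downward step is imprecise.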
